A study of Mus musculus with 10 samples.

Results

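The BCL2 family decides whether a cell opens the outer membrane of its mitochondria and dies by apoptosis. Here 10 of its genes were followed: the pro-survival genes Bcl2, Bcl2l1 and Mcl1, the pore-forming effectors Bax and Bak1, the BH3-only genes Bcl2l11, Bbc3, Pmaip1 and Bid, and the divergent gene Bcl2l14. They were taken by symbol from a table of 24385 genes, and all 10 were found and passed the filter on low counts. The cells were dendritic cells grown with 20 ng/mL GM-CSF from the marrow of wild-type female C57BL/6 mice aged 8 to 10 weeks, in a culture of 7 days. Non-adherent cells taken on day 6 received for 24 h either AMLE, a leaf extract of apple mango, at 400 µg/mL, or 0.04% DMSO as the vehicle. Each treatment has 3 RNA-seq libraries and 2 ATAC-seq libraries, the latter marking open DNA that a transposase can reach. The series title gives maturation and activation of the cells as the question. The labels do not tie replicates to separate mice or cultures, so every p-value below describes the variation among these libraries, part of which may be technical.

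Pro-survival proteins hold the effectors BAX and BAK in check by binding them and by binding BH3-only proteins. When BH3-only proteins exceed that capacity, the effectors form pores, cytochrome c leaves the mitochondria and caspases are activated. Dendritic cells are short-lived after maturation, and this balance is known to set their lifespan, with BCL-xL (from Bcl2l1) on one side and BIM (from Bcl2l11) on the other.

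Count totals ran from 26010455 to 34208286 per RNA library. The dendritic cell genes Itgax, Cd74 and Ccr7 were present in every library. Of 8 dendritic cell markers 4 were higher in AMLE (Flt3 4.81-fold, Ccr7 2.74-fold, Batf3 2.42-fold and Zbtb46 1.84-fold) and 1 lower (H2-Ab1, 0.617-fold), with summed levels of 5306 to 7956 CPM (counts scaled to the library total) in DMSO and 6095 to 6956 in AMLE. The haemoglobin genes Hba-a1 and Hbb-bs were at 0 in every library. In these bulk samples a smaller share of a cell type and less RNA per cell cannot be told apart. Of 9 granulocyte markers 6 were lower in AMLE, Elane the most (0.0405-fold), and none higher. Summed levels were 12627 to 20151 CPM in DMSO and 9500 to 12713 in AMLE. Most of that sum came from S100a8 and S100a9 (means of 4779 and 7746 CPM in DMSO), which were not called. Of 8 macrophage markers 5 were lower, C1qa the most (0.0315-fold), and 1 higher (1412 to 1641 against 859 to 1460 CPM). Most of the macrophage sum came from Csf1r (mean of 1062 CPM in DMSO), which was not called. Of 7 mast cell and basophil markers 4 were higher (145 to 230 against 237 to 456 CPM), and of 6 eosinophil markers 2 were higher (1327 to 2036 against 1844 to 2433 CPM). Most of the eosinophil sum came from Prg2, which was not called. Lymphocyte markers summed to 28.3 to 40.2 CPM in DMSO and 28.7 to 42.2 in AMLE, with 1 of 6 tested lower. Over all genes tested, 23.0% were called higher and 25.6% lower, with a call as defined below. All 6 genes of a proliferation list were lower, with a median log2 change of −2.03. The part of these shifts in the changes of the BCL2 family was not tested.

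With AMLE, 7 of the 10 genes were called higher and 1 lower, on both the protective and the death-promoting side of the family. Called means a Benjamini-Hochberg adjusted p below 0.05 in edgeR's two-sided quasi-likelihood test over 13075 genes. Across all of them, 23.0% passed as higher and 25.6% as lower. Bcl2l1 and Mcl1 (pro-survival), Bax (effector), Bcl2l11, Bbc3 and Pmaip1 (BH3-only) and Bcl2l14 rose, Bid fell, and Bcl2 and Bak1 were not called. The groups did not overlap for the same 8 genes, with AMLE above for 7 and below for 1. Across the genes tested, 28.4% lay wholly above and 31.4% wholly below. The median log2 change was 0.34 over the 10 genes and −0.01 over the genes tested. Changes were small: apart from Bcl2l14, they lay between a fall to 0.733-fold and a rise to 1.59-fold.

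**Figure D1:**
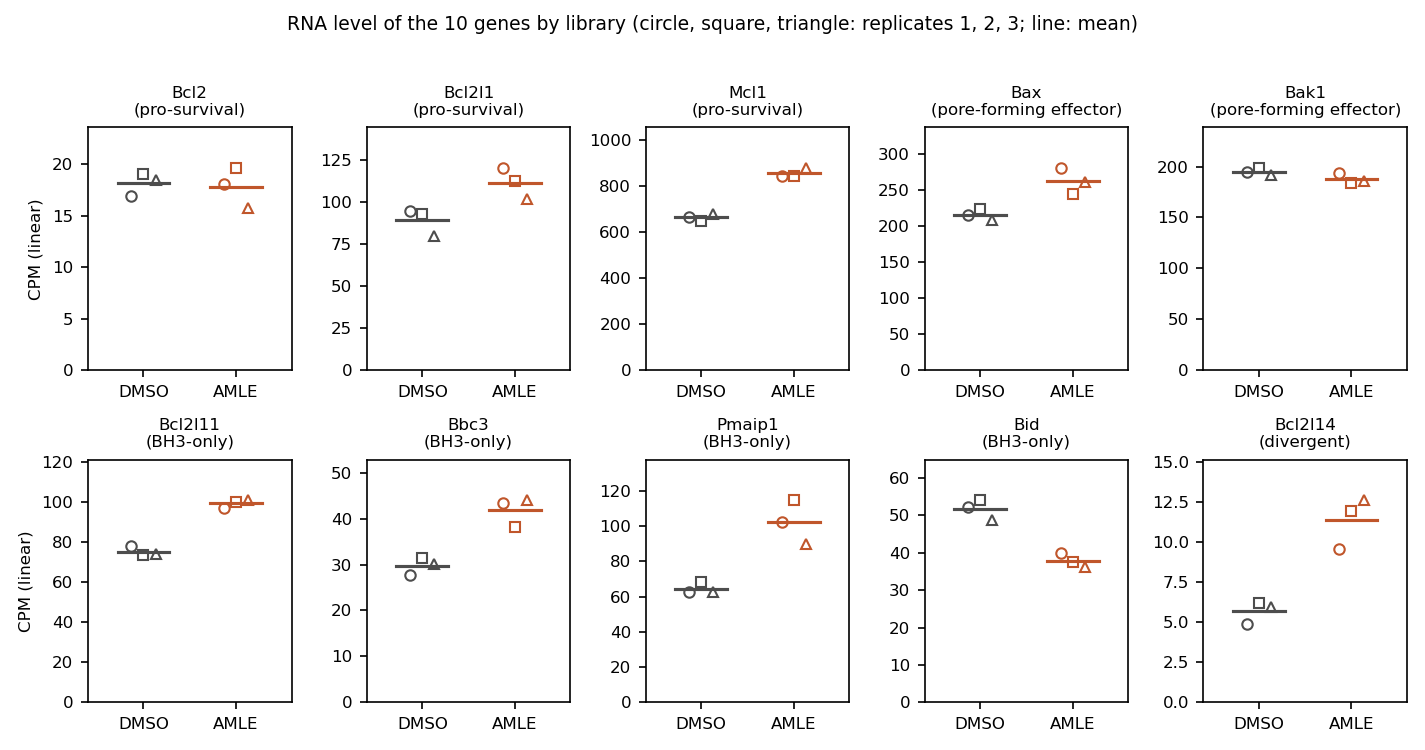
RNA level in CPM (linear axis from 0) of the 10 genes in the 3 DMSO and 3 AMLE libraries, with each library as a point and the group mean as a line. Mcl1 sat at 649 to 679 in DMSO and 843 to 880 in AMLE, Bid lay lower in each AMLE library, and the groups overlapped for Bcl2 and Bak1.

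To show the sequence at the starts of these genes, the 250 bases before each RefSeq start site (build GRCm38.p6, the same coordinates as mm10) were searched on both strands. The motifs were those of NF-kB and a p53 half-site, each known by a degenerate 10-base pattern, STAT (TTCNNNGAA), FOXO (TGTTTAC), AP-1 (TGANTCA) and the GC box (GGGCGG). Overlapping matches were kept. Of 32851 such windows in the table, 7.25% held an NF-kB match, 7.13% a p53 half-site, 7.02% a STAT match, 3.17% a FOXO match, 6.75% an AP-1 match and 32.7% a GC box. Start sites were listed for 9 of the 10 genes, all but Pmaip1. For ATAC, a start was counted as covered where a peak overlapped its start window, from 250 bases before it to 50 after. A match describes the letters only. In each sequence below, capitals mark a match other than a GC box.

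Mcl1 encodes a short-lived pro-survival protein that many myeloid cells need. It stood at 667, 649 and 679 CPM in DMSO replicates 1 to 3 and at 843, 845 and 880 CPM in the AMLE replicates. Each AMLE library lay above each DMSO library, and the log2 change was 0.36 ± 0.05 (SE; 1.29-fold, edgeR adjusted p = 0.00113). Its start site on chromosome 3 was covered by an ATAC peak in all 4 libraries, inside a region of 1293 bases at chr3:95658318-95659610. Regions with their middle at −7703 and at 10147 bases from the start were also called in all 4.

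Bcl2l1, the gene of BCL-xL, stood at 94.9, 93.0 and 79.9 CPM in DMSO and 120, 112 and 102 CPM in AMLE. The groups did not overlap, though the gap between DMSO replicate 1 and AMLE replicate 3 was small, and the log2 change was 0.32 ± 0.09 (1.25-fold, edgeR adjusted p = 0.0187). That call was lost without AMLE replicate 1 (edgeR adjusted p = 0.0642) and without AMLE replicate 2 (0.0504), within a range of 0.00059 to 0.0642 over 13 alternatives. An open region of 1230 bases at chr2:152830579-152831808 covered 2 of its 3 listed starts in all 4 libraries. Ahead of the start at 152830717 lay its only NF-kB match, shown here in the 30 bases at chr2:152830938-152830967 on the minus strand. It runs from position −242 to −233 relative to that start, within the open region.
Bcl2l1: tgtttgtgGGGGGTCTCCagcatacgcctc

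Bcl2, the founding pro-survival gene, gave no call. It stood at 17.0, 19.1 and 18.5 CPM in DMSO and 18.1, 19.7 and 15.7 CPM in AMLE, with overlapping groups. Its log2 change was −0.03 ± 0.10 (edgeR adjusted p = 0.836), and the sign turned with upper quartile scaling (0.01). Bcl2 nonetheless had a peak at its start in both DMSO ATAC libraries and in neither AMLE library. That region spanned chr1:106713845-106714508, and the authors' −log10 q there was 1.74 and 3.97, against 21.84 and 26.94 in the same libraries for the region with its middle 86909 bases into the gene, which all 4 libraries shared. The 250 bases before the start (chr1:106714291-106714540, minus strand) are printed because the peak called in DMSO alone lies over part of them. They are 74.8% G and C, where the median window has 52.4%, and hold 7 GC box matches but no match to the other motifs.
Bcl2: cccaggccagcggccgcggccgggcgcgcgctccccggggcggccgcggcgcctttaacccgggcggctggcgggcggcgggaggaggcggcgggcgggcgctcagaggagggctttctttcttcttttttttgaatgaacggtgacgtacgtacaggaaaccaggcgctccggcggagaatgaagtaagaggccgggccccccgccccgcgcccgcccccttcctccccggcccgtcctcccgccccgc

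Among the effectors, Bax was higher with AMLE and Bak1 was not called. Bax stood at 216, 224 and 209 CPM in DMSO and 281, 246 and 261 CPM in AMLE. No AMLE library fell into the DMSO range, and the log2 change was 0.28 ± 0.06 (1.21-fold, edgeR adjusted p = 0.0086). Bak1 stood at 195, 199 and 192 CPM in DMSO and 194, 184 and 186 CPM in AMLE, with overlap and a log2 change of −0.05 ± 0.04 (edgeR adjusted p = 0.342). Bak1 lies wholly inside Ggnbp1, and whether the counting used strand is not given in the sources used here. Ggnbp1 had 54 to 118 counts per library, against 4856 to 6315 for Bak1.

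The Bax start was covered in all 4 ATAC libraries by the region chr7:45466367-45467047. The Bak1 start window was covered in both DMSO libraries and in AMLE replicate 2 but not in AMLE replicate 1, whose peak there lay further inside the gene. The Bax window held the only p53 half-site match among the windows of the genes followed here. Over all windows in the genome-wide set, 7.13% held such a match, and no Bbc3 window did. The Bax match lay at −201 to −192 from the start, beyond the edge of the region that covered this start. It is shown in the 30 bases at chr7:45467080-45467109 on the minus strand, since Bax is a known p53 target.
Bax: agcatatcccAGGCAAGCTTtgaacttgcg

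BH3-only genes gave both the largest rises after Bcl2l14 and the only fall. Pmaip1 encodes NOXA, which binds MCL-1 and promotes its loss. It stood at 62.4, 68.4 and 62.4 CPM in DMSO and at 102, 115 and 89.6 CPM in AMLE. The lowest AMLE library was above the highest DMSO library, with a log2 change of 0.67 ± 0.09 (1.59-fold, edgeR adjusted p = 0.00118). A region of 1033 bases overlapping Pmaip1 was called in all 4 libraries, and a region of 378 bases outside the gene was called in both AMLE libraries and in DMSO replicate 2.

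Bbc3 encodes PUMA, a p53-responsive protein that binds all the main pro-survival members. It stood at 27.7, 31.5 and 30.0 CPM in DMSO and 43.3, 38.1 and 44.0 CPM in AMLE. The groups were apart, with a log2 change of 0.49 ± 0.08 (1.41-fold, edgeR adjusted p = 0.00214). Bbc3 has 3 listed starts. A peak overlapped the start window of the first (16309583) in all 4 ATAC libraries, and those of the later starts in both AMLE libraries and DMSO replicate 2. These regions ended at 16309535 and 16310336, so the start sites 16309583 and 16310431 themselves lay outside them. Before the first start lay overlapping NF-kB matches on both strands, of which the forward one is shown at chr7:16309436-16309465, and before the start at 16310261 a FOXO match, at chr7:16310084-16310113.
Bbc3, NF-kB match: tctggctgccGGGAAACCCCccgcgccgag
Bbc3, FOXO match: ctggcgggttTGTTTACaaacaatggggtt

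Bcl2l11 encodes BIM, which can bind every pro-survival member and limits the survival of many haematopoietic cells. It stood at 78.2, 73.7 and 74.4 CPM in DMSO and 97.4, 100.5 and 101 CPM in AMLE. Replicates differed little, and the log2 change was 0.40 ± 0.05 (1.32-fold, edgeR adjusted p = 0.000476). Both listed starts of Bcl2l11 were covered by peaks in all 4 libraries, at chr2:128125602-128126289 and chr2:128127181-128127855. The first window held a FOXO match on the reverse strand, at −227 to −221 from the start. It is shown at chr2:128125801-128125830, as FOXO factors are known activators of BIM and PUMA genes.
Bcl2l11: agacactaggGTAAACAcgccggggtgggc

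Bid links death receptors to mitochondria, since caspase 8 cleaves its protein into the active form. It stood at 52.2, 54.1 and 48.8 CPM in DMSO and 40.0, 37.5 and 36.1 CPM in AMLE. The highest AMLE library was below the lowest DMSO library, with a log2 change of −0.45 ± 0.06 (0.733-fold, edgeR adjusted p = 0.00123). Its start was covered in all 4 ATAC libraries. A region inside the gene, chr6:120901863-120902260, was called in both DMSO libraries (−log10 q of 3.99 and 6.02) and in neither AMLE library. The window before the Bid start held 3 GC box matches and no other match.

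Bcl2l14 encodes BCL-G, a divergent relative whose role in apoptosis is less settled. It had 153, 177 and 172 counts in DMSO and 247, 408 and 330 counts in AMLE, or 4.86, 6.21 and 5.93 CPM against 9.59, 11.9 and 12.6 CPM. The groups were well apart, and its log2 change of 1.01 ± 0.14 (2.01-fold, edgeR adjusted p = 0.00126) was the largest of the 10. The single region called within 10 kb of Bcl2l14, chr6:134414144-134414516 over its second listed start, was called in both DMSO libraries (−log10 q of 3.49 and 2.62) and in neither AMLE library. Both values lay below the −log10 q of 5 used as an alternative. A missing peak call is not a measured fall, so no direction is set against the rise in RNA. No library had a peak at the first start, 134396329. The 250 bases before the second start, which lies within the gene (chr6:134414178-134414427, plus strand), are printed to set beside those of Bcl2. They are 46.8% G and C and hold no match to any of the motifs, GC box included.
Bcl2l14: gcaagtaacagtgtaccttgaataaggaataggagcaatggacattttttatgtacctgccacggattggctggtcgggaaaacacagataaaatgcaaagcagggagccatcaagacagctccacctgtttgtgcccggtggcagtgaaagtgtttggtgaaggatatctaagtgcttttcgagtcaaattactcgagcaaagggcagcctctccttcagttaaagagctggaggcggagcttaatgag

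Levels of pro-survival genes over pro-death genes were then compared within each library, as the log2 ratio of their CPM. The BH3-only genes Bid and Bbc3 are in none of the pairs chosen. Each difference of group means follows closely from the log2 changes of the paired genes given above, so it is no separate result. These ratios are read only between groups, since no transcript lengths were used. The Mcl1 to Bcl2l11 ratio was 3.09, 3.14 and 3.19 in DMSO and 3.11, 3.07 and 3.12 in AMLE, overlapping, with a difference of means of −0.04. Bcl2l1 over Bcl2l11 (−0.08) and Bcl2l1 over Bax (0.04) also overlapped, with SDs of 0.10 to 0.15 within groups. None of these 3 ratios separated the groups.

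Bcl2 over Bcl2l11 and Mcl1 over Bak1 did separate the groups. Bcl2 over Bcl2l11 was −2.20, −1.95 and −2.01 in DMSO and −2.43, −2.35 and −2.68 in AMLE, a difference of −0.44 with no overlap. Mcl1 over Bak1 was 1.78, 1.71 and 1.82 in DMSO and 2.12, 2.20 and 2.25 in AMLE, a difference of 0.42 with no overlap. Mcl1 over Pmaip1 was 3.42, 3.25 and 3.45 in DMSO and 3.04, 2.88 and 3.30 in AMLE, a difference of −0.30. AMLE replicate 3 lay within the DMSO range, so the groups overlapped for Mcl1 over Pmaip1. No test was made on these ratios.

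**Figure D2:**
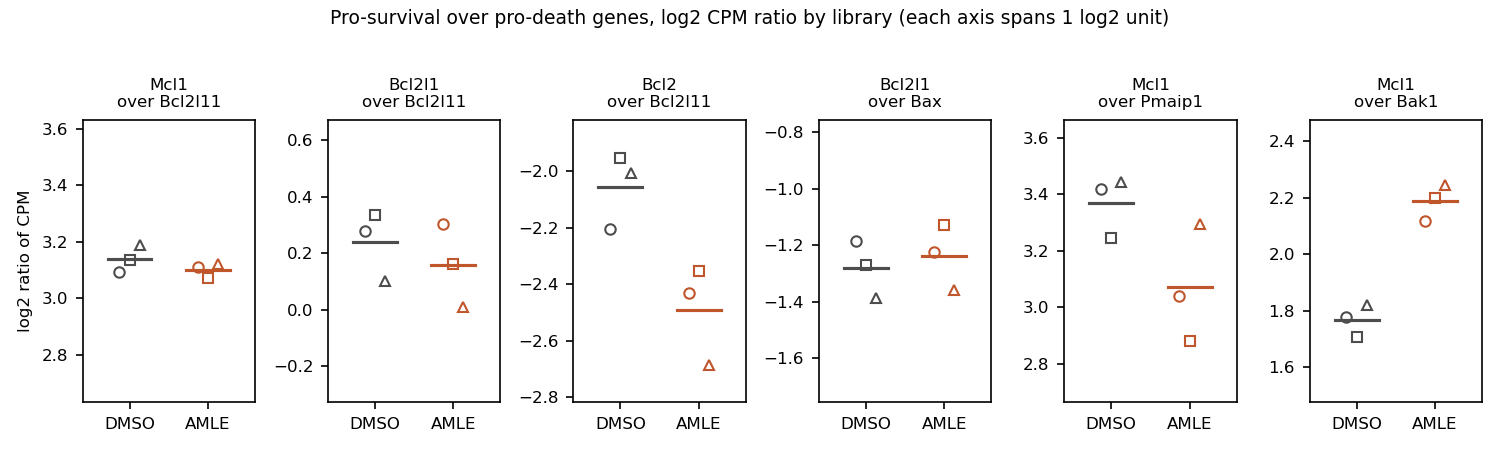
Log2 ratio of CPM for 6 pairs of a pro-survival over a pro-death gene, by library, with group means as lines; each vertical axis spans 1 log2 unit. Mcl1 over Bak1 lay higher in every AMLE library and Bcl2 over Bcl2l11 lower, while the groups overlapped for the other 4 pairs.

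The rest of the family was read from the same fit. Of 17 further family genes, 12 passed the filter on low counts, and 9 of these were called higher and none lower. Over all genes tested, 23.0% were called higher and 25.6% lower. At an unadjusted p below 0.05 there was likewise no lower call in edgeR, and DESeq2 and limma-voom also gave 0. The genes that did not pass were Bcl2l10, Bik, Hrk, Bok and Bcl2l15. The median log2 change of the 12 was 0.31, against −0.01 over all genes tested.

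All 5 tested pro-survival relatives were higher. Bcl2a1b, one of the A1 genes that NF-kB is known to induce, stood at 360, 400 and 375 CPM in DMSO and 573, 607 and 530 CPM in AMLE (0.59 ± 0.07, edgeR adjusted p = 0.000553). Bcl2a1d rose by 0.49, Bcl2a1a by 0.35 and Bcl2a1c, near 1 CPM, by 0.69. Reads of these near-identical copies may have been split or merged in counting, so their single values are uncertain. For the same reason, these copies may not be separate results in the counts and the median given for the further family genes. Bcl2a1c was not called with DESeq2 (adjusted p = 0.0688) and not without any single one of the DMSO libraries, AMLE replicate 3 or both libraries numbered 3, within a range of 0.0182 to 0.0909. Bcl2l2, the gene of BCL-W, rose by 0.24.

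Among the other death-promoting genes, Bmf, a BH3-only gene linked to loss of attachment, stood at 77.2, 77.5 and 74.2 CPM in DMSO and 158, 196 and 138 CPM in AMLE. Every AMLE library was far above the DMSO range (1.10 ± 0.12, 2.15-fold, edgeR adjusted p = 0.000568), and this log2 change was larger than that of any of the 10 genes. Bad, a BH3-only gene controlled by phosphorylation, was not called (0.02, adjusted p = 0.81). Among divergent relatives, Bnip3, a mitochondrial protein of the hypoxia response and of mitophagy, rose 2.21-fold (1.15 ± 0.14), beside its relative Bnip3l (0.27) and the autophagy gene Becn1 (0.14). Bnip3l was lost without any 1 of the DMSO libraries (edgeR adjusted p of 0.0651 to 0.0696). Becn1 was lost in the same fits, without AMLE replicate 1 and with no low-count filter (0.0575 to 0.0791). Bcl2l13 (0.11, adjusted p = 0.264; 0.0384 without AMLE replicate 3) and Bcl2l12 (−0.23, adjusted p = 0.0962) were not called.

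**Figure D3:**
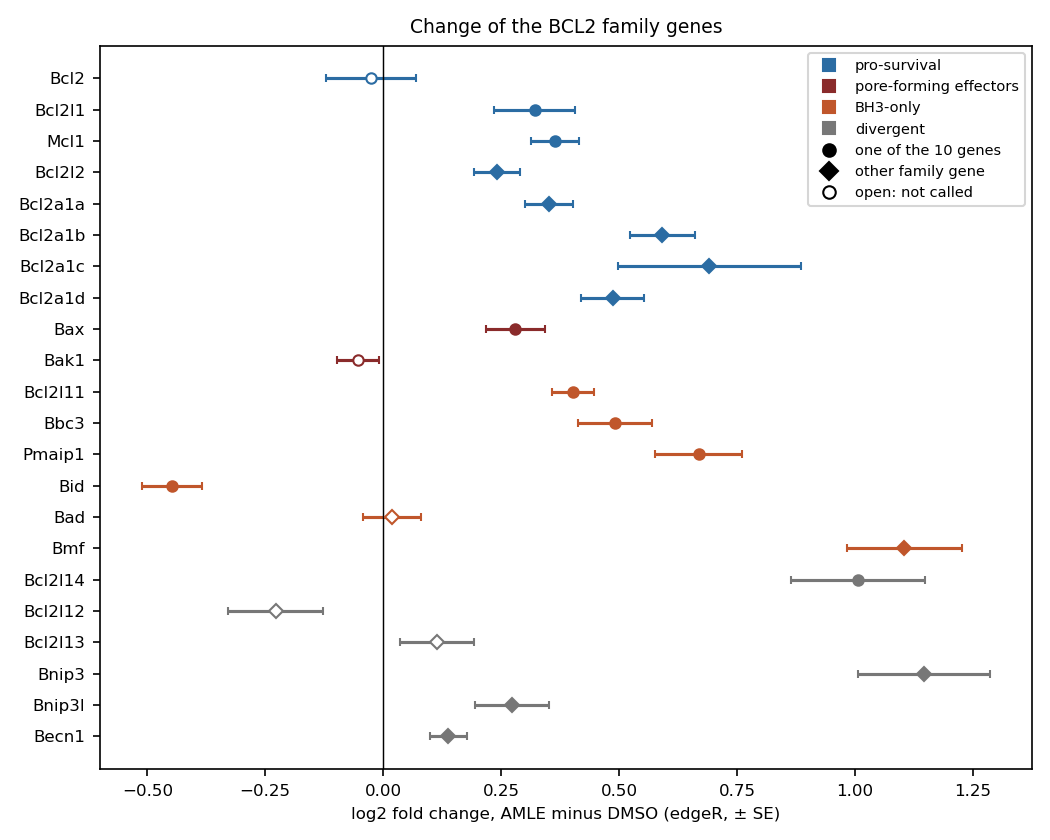
Log2 fold change of AMLE minus DMSO with its SE for the 10 genes (circles) and 12 other tested family genes (diamonds), coloured by role, with open symbols for genes not called. Bid at −0.45 was the only called gene below 0, and Bnip3 (1.15), Bmf (1.10) and Bcl2l14 (1.01) lay farthest above it.

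ATAC peaks at the 10 genes were mostly shared by the groups. Intervals of the 4 peak lists that touched were joined into 24542 regions, 31 of which overlapped one of the genes or lay within 10 kb of it. All 4 libraries shared 17 of the 31 (54.8%), against 49.0% of the 24542. Both DMSO libraries and neither AMLE library held 3 of the 31, those named above at the Bcl2 start, the second Bcl2l14 start and inside Bid, where 5.95% of the whole set were of that kind. Both AMLE libraries and neither DMSO library held 0 of the 31, against 0.460% of the whole set.

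The DMSO lists were longer, with 18341 and 19071 regions against 15685 and 15520 for AMLE, and the part of this in the 3 regions was not tested. With peaks kept only at a −log10 q of at least 5, none of the 3 was counted. Peak calls of 2 against 2 libraries carry no test here. Of the 9 genes with a listed start, 6 had one covered in all 4 libraries (66.7%), against 64.4% of 9978 tested genes with a listed start. Those 6 were Bcl2l1, Mcl1, Bax, Bcl2l11, Bbc3 and Bid. For Bbc3 the region shared by all 4 libraries overlapped the start window but ended before the start site. Bax has the neighbour Ftl1 within 10 kb, so regions outside a gene need not belong to it.

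**Figure D4:**
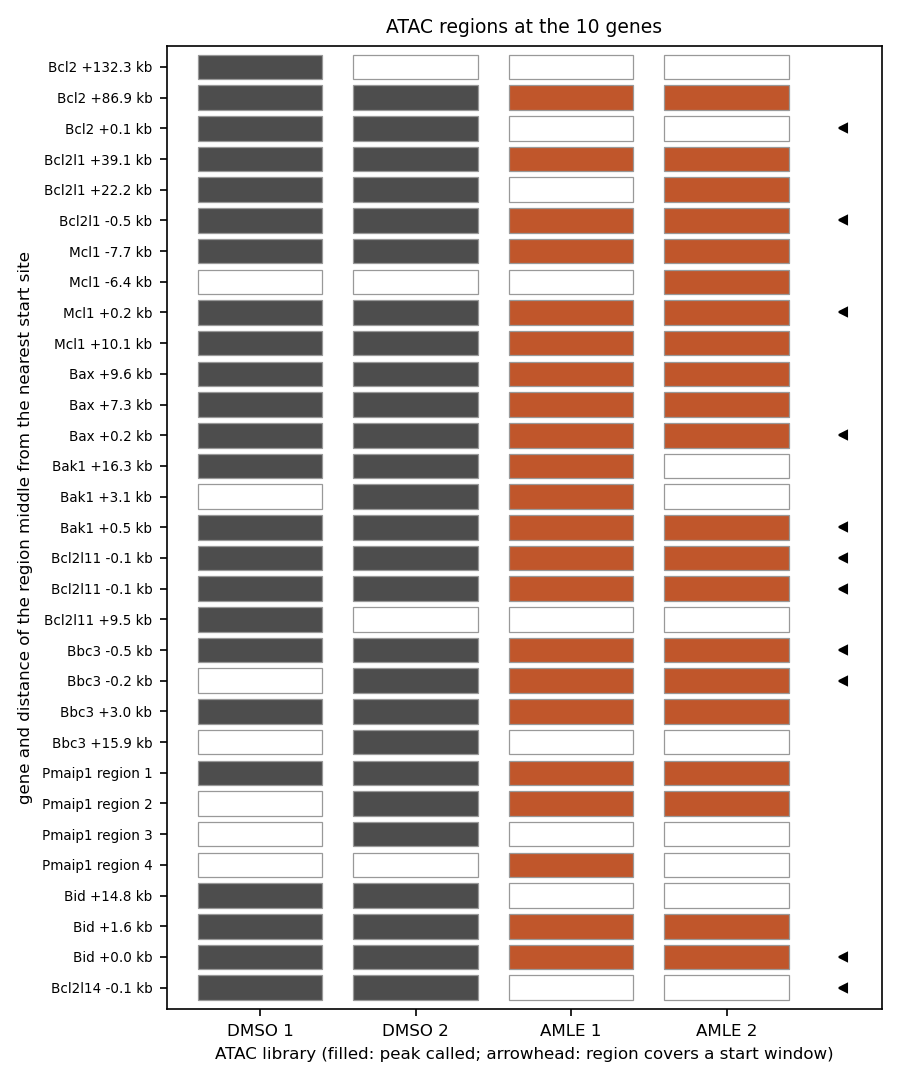
Presence of a called ATAC peak (filled box) in each of 2 DMSO and 2 AMLE libraries for the 31 regions at the 10 genes, labelled by the distance of the region's middle from the nearest listed start (Pmaip1 by order along the chromosome). The start regions of Bcl2 and Bcl2l14 and the Bid region 14.8 kb inside the gene are filled for DMSO alone.

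Downstream of the family, 3 of 16 mitochondrial execution genes were called higher and 5 lower, shares near those over all genes tested (23.0% and 25.6%). Cycs, the gene of cytochrome c, which also carries electrons in respiration, fell from 63.5 ± 0.83 CPM (SD, n = 3) to 42.7 ± 2.8 CPM (−0.57 ± 0.06, SE, edgeR adjusted p = 0.000332). Aifm1, a mitochondrial flavoprotein that can also promote cell death, fell to 0.631-fold (−0.66). Further called genes, named after their values were seen, included the caspases Casp6 (0.39) and Casp9 (0.18), which rose, and Vdac1 (−0.22), Vdac2 (−0.20) and Vdac3 (−0.31), channels of the outer mitochondrial membrane, which fell. The count of higher genes was 1 without any single one of the DMSO libraries.

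In the death receptor arm 3 of 8 genes rose and 2 fell, beside 23.0% and 25.6% of all genes tested, and so small a list is not set apart by its counts. Cflar, which encodes the caspase 8 inhibitor c-FLIP, stood at 125, 126 and 122 CPM in DMSO and 247, 299 and 201 CPM in AMLE (1.00 ± 0.13, edgeR adjusted p = 0.00114). The TRAIL receptor gene Tnfrsf10b rose by 0.74 and Tnfrsf1a, the gene of TNF receptor 1, fell (−0.46). The death receptor gene Fas (0.43) also rose and Casp8 (−0.15), whose protein cleaves BID, fell, both named after their values were seen. Only 1 gene was lower with upper quartile scaling, and likewise when replicate 1 or 2 of either group was left out.

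Upstream, the p53 arm rose in 11 of 14 genes and fell in 1, beside 23.0% and 25.6% of all genes tested. Its median log2 change was 0.50, against −0.01 over all genes tested. Eda2r rose from 1.59, 1.37 and 1.24 CPM to 7.18, 7.94 and 3.40 CPM (2.14 ± 0.34, edgeR adjusted p = 0.00223), and Phlda3, a repressor of AKT, rose by 1.11. Perp rose by 0.99, a call lost when DMSO replicate 1 or 3, or AMLE replicate 1 or 2, was left out (edgeR adjusted p of 0.0574 to 0.0689). The only gene that fell was Trp53 itself, which encodes p53, from 144, 146 and 145 CPM to 106, 105 and 108 CPM (−0.45 ± 0.04, edgeR adjusted p = 0.000184). Trp53 was named after its values were seen, and so were Cdkn1a (0.92), the cell cycle inhibitor, and Mdm2 (0.91), the ligase that degrades p53, both of which rose.

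Known regulators of the family's transcripts and proteins rose in 12 of 16 genes and fell in 0 (0 also at an unadjusted p below 0.05 and with DESeq2 and limma-voom). Over all genes tested, 23.0% were called higher and 25.6% lower. The median log2 change of the regulators was 0.55, against −0.01 over all genes tested. Rel, an NF-kB subunit known to induce Bcl2l1 and the A1 genes, stood at 61.5, 63.0 and 66.7 CPM in DMSO and 136, 157 and 131 CPM in AMLE (1.15 ± 0.08, edgeR adjusted p = 7.82e-05). Stat5a, a transducer of GM-CSF signals, rose by 1.10 and the kinase gene Pim2 by 0.76. The Pim2 groups overlapped, and its call was lost when the same libraries, 1 at a time, were left out (edgeR adjusted p of 0.0813 to 0.0847). Foxo3 (0.35) and Foxo1 (0.64), named after their values were seen, also rose.

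**Figure D5:**
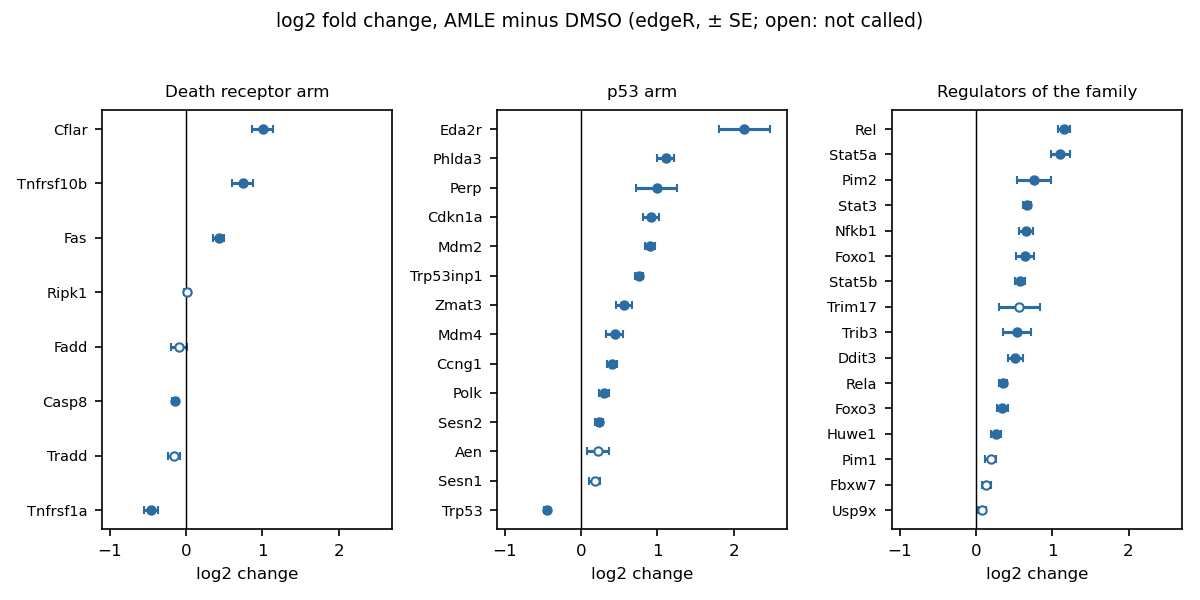
Log2 fold change of AMLE minus DMSO with its SE for each gene of 3 lists around the BCL2 family (death receptor arm, p53 arm and regulators), ordered within the list, with open circles for genes not called. Trp53 at −0.45 is the only p53 gene below 0, and the death receptor list runs from Tnfrsf1a (−0.46) to Cflar (1.00).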

How the data were processed

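For RNA, the authors deposited raw read counts per gene symbol, 1 column per library, from libraries made with a stranded mRNA kit per the labels' protocols. For ATAC, the authors deposited a peak list per library with a score, a fold enrichment (a ratio), and −log10 p and −log10 q values, which were used here only to describe or filter peaks within a list. The submitters' processing notes name STAR 2.7.11b, Bowtie2 2.4.4, MACS3 3.0.0a7 and mm10 without roles; the sources used here do not give the counting tool or the peak settings.

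The 10 genes and the lists around them were chosen with earlier results of these data known. All 24385 genes entered one edgeR 4.0.16 fit (R 4.3.3; TMM, default low-count filter with minimum count 10, robust quasi-likelihood F test, Benjamini-Hochberg adjustment over 13075 genes). The test was checked on simulated data. Peak lists per group were not used. SE is the absolute log2 change over the square root of F. CPM uses effective library totals. Alternatives used DESeq2 1.42.0 and limma-voom (limma 3.58.1), other scalings, no filter, a replicate block and each library left out; leaving out both libraries numbered 3 was added after seeing the data.

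Deviations from the group means correlated at 0.292, 0.280 and 0.431 for equal replicate numbers and at −0.310 to 0.110 for unequal ones. Deviations within a group sum to 0, so these correlations depend on one another. The labels do not state a pairing, and the main fit used none, with the replicate block as an alternative. Named were the 10 genes, all tested further family genes, and the 3 called genes with the largest absolute change and a mean of at least 1 CPM in each of 4 lists. One result of the execution list is not reported here. Levels were not compared between genes, since transcript lengths were not used here. Among the 10 genes, counts were lowest for Bcl2l14, at 153 to 408 per library.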

Additional observations from a re-analysis of the deposited data

How the results depend on the processing

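Over 13 alternatives each, 124 of 130 values of the 10 genes kept their direction and their side of the threshold. The exceptions were Bcl2l1, not called in 2 of them, and Bcl2, never called, whose sign turned with upper quartile scaling (0.0083). Its change ran from −0.099 to 0.069 with 1 library left out, above 0 without DMSO replicate 2 or AMLE replicate 3, and was 0.083 when both libraries numbered 3 were dropped. Bad, never called, ran from −0.025 to 0.054, below 0 without DMSO replicate 1. With the replicate block, 7 of the 10 genes were again called higher and 1 lower, and the block changed no call of the 34 named genes. With 1 library left out, 6 to 7 of the 10 were higher and 1 lower, 6 to 9 other family genes were higher and 0 lower, and 2263 to 3308 of all genes were higher and 2666 to 3475 lower. In the same fits 1 to 3 execution genes were higher and 4 to 5 lower, 3 death receptor genes were higher and 1 to 3 lower (1 with upper quartile scaling), 9 to 13 p53 genes were higher, and 10 to 14 regulators were higher. Scaling moved the median of all genes by under 0.1. For ATAC, a window of 50 kb held 64 regions, 36 of them in all libraries, by its wider reach, and a −log10 q of at least 5 left 0 regions in DMSO alone. With 1 ATAC library left out, 4 to 5 regions were in DMSO alone and 0 to 2 in AMLE alone, as fewer libraries had to match. The cause of the other shifts was not tested. Depth limits Bcl2a1c, near 1 CPM.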

Other observations

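On the leading principal component of all tested genes, which held 76.6% of the variance, AMLE replicate 3 (23.0) lay nearer to the DMSO libraries (−42.0 to −31.1) than AMLE replicates 1 (38.3) and 2 (46.5). The BCL2 family did not follow that order throughout. Mcl1 (880 CPM), Bcl2l11 (101 CPM), Bbc3 (44.0 CPM) and Bcl2l14 (12.6 CPM) were at their highest in AMLE replicate 3, and Bid (36.1 CPM) at its lowest, farthest from DMSO. Bcl2l11 was close behind in AMLE replicate 2 (100.5 CPM). Pmaip1 (89.6 CPM), Bcl2l1 (102 CPM) and Bmf (138 CPM) were lowest among the AMLE libraries in replicate 3, nearest to DMSO. So were Bcl2l2 (48.7 CPM), Bcl2a1a (167 CPM), Bcl2a1b (530 CPM) and Bcl2a1d (266 CPM). Cflar (201 CPM), which is not a BCL2 family gene, was likewise lowest there. Without both libraries numbered 3, Mcl1 rose by 0.37, Bcl2l11 by 0.39 and Pmaip1 by 0.75 on the log2 scale.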
